A study of Danio rerio with 33 samples.

Results

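Zebrafish embryos exposed to an extract of subway air particles were set against embryos exposed to an extract of one traffic road filter, road filter 28. The 6 libraries compared, 3 per extract, were chosen by label out of 33 in the whole series: all subway libraries, and the road filter 28 libraries sequenced in the same round. The study collected airborne particles on filters at transport sites, extracted organic compounds from each filter with dichloromethane and methanol, and took up the extracts in methanol. Wild-type embryos were exposed for 24 h, from 96 to 120 h after fertilization, and polyadenylated RNA of pools of 10 whole embryos was sequenced with strand kept. Road filter 28 came from a traffic road in Barcelona in the cold season, and subway filter 80 came from Valencia. Vehicle pools, which served as the common reference level, had the carrier in place of a filter extract. Each site is thus held by a single filter here, and the 3 pools of a group share 1 extract. The labels do not give the amount of extract per embryo, so the doses cannot be matched, and site, city, season and dose cannot be told apart.

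Organic compounds of combustion particles include polycyclic aromatic hydrocarbons, which bind the aryl hydrocarbon receptor (AhR). The bound receptor enters the nucleus and switches on cytochrome P450 family 1 genes, which oxidise the compounds, and the receptor's own repressors. At this age the embryo has a working liver, gut, gills in formation and innate immune cells, while the retina, brain and cartilage still add cells by division.

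The 2 groups were sequenced to different depth. The subway pools held 24369748, 24983683 and 23586397 gene counts (pools 1, 2 and 3) and the road filter 28 pools 33450621, 37020687 and 27610181 (pools 2, 3 and 4), with no overlap. With counts of all libraries thinned to equal totals 1001 genes passed the test described below, 927 of them shared with the 1128 reported. Between 79.0% and 79.3% of reads mapped uniquely in these 6 libraries, and 22% to 22.9% were duplicates. Defining markers of liver (fabp10a), gut (fabp2), pancreas (prss1), heart (myl7), retina (gnat2), cartilage (col2a1a) and neurons (elavl3) were present in all 6. The subway libraries belong to library series 38 and those of road filter 28 to series 37, so extract and library series cannot be told apart in these 6. The fit therefore held all 18 second-round libraries, including harbour filter 36, the one filter with pools in both series. Its series 38 pool stood apart from its series 37 pools on the second principal component, at 50.1 against -0.5 and -5.8, a component with 8.19% of the variance. The subway pools, also of series 38, lay at 6.5, -7.5 and 7.3 on it, and road filter 28 at -6.6, -12.1 and -1. That harbour pool also had the lowest total of the 18, 19454977 gene counts. A series 38 covariate estimated from it cannot tell the series from that single pool. On the first component, with 34.8%, vehicle lay between -36.6 and -31.7, road filter 28 between -26.9 and -20.9, and subway between 7.2 and 13.1.

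With edgeR's quasi-likelihood test and Benjamini-Hochberg adjustment (adjusted p under 0.05, called "passed" here), 1128 of 21856 genes passed between subway and road filter 28, which is 5.16% of those tested. Of these, 644 were higher in subway (2.95%) and 484 lower (2.21%), while the median log2 difference over all genes was -0.00. CPM is counts scaled to a common library size, and each log2 difference below is subway minus road filter 28, with its standard error, unless another pair is named. Against vehicle, subway had 1496 higher and 1324 lower genes (6.84% and 6.06%), and road filter 28 had 28 higher and 8 lower (0.128% and 0.0366%). These 2 comparisons share the vehicle pools, which belong to library series 37, as road filter 28 does. Extract and library series therefore cannot be told apart in subway minus vehicle either.

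The count of 1128 rested on the libraries and the model. Without subway pool 1 or 2 it was 535 or 726, and without road filter 28 pool 2 or 4 it was 679 or 617. With series 38 as a covariate, estimated from harbour filter 36 alone, 844 genes passed, of which 235 were among the 1128. A further fit held all 33 libraries, with 1 coefficient per filter and a covariate for the first round. It adds the first-round pool of road filter 28 and is called the fit that pools the rounds below. There edgeR called 0 genes, with 1329 at an unadjusted p under 0.05, while DESeq2 called 1. In a fit of all 33 with each filter kept apart by series, added after the data were seen, 509 passed, 508 of them shared with the 1128. In the fit that pools the rounds all 128 named calls between subway and road filter 28 are lost. Of these 128, 77 passed whichever of the 6 libraries was left out, and 52 with series 38 as covariate. Of 132 named calls of subway against vehicle, 23 were kept in the fit that pools the rounds and 71 with series 38 as covariate. Of 9 such calls of road filter 28, 5 and 9 were kept. The treatment label's replicate number was also tried as a block. Replicates 5 and 6 occur only in vehicle, and replicate 1 only in subway. In that fit the vehicle comparisons rest on vehicle pool 4 alone, so it cannot test these calls.

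Genes of cell division were lower in subway. Of 32 mitosis genes tested, 29 passed as lower and 0 as higher, and all 32 estimates were below 0, with a median of -0.80. The values fell between -1.19 (ube2c) and -0.51 (prc1a). In whole embryos, fewer dividing cells and less of these transcripts per cell cannot be told apart.

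The spindle protein gene nusap1 (ENSDARG00000002403) stood at 15.4, 17.1 and 16.2 CPM in subway pools 1, 2 and 3 and at 29.5, 29.1 and 35 CPM in road filter 28 pools 2, 3 and 4. All 3 subway pools lay near one level, well below every road filter 28 pool. Its difference was -0.94 ± 0.11 (adjusted p = 5.67e-05). The vehicle pools stood at 30.8, 29.9 and 31.7 CPM, inside the range of road filter 28.

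ube2c, the ubiquitin-conjugating enzyme that works with the anaphase-promoting complex, stood at 3.34, 4.12 and 3.73 CPM in subway and at 8.53, 6.66 and 10.5 CPM in road filter 28. The groups did not overlap, and road filter 28 spread more widely. The difference was -1.19 ± 0.15 (adjusted p = 8.58e-05). cdc20, the activator of that complex, was at 5.97, 6.56 and 6.88 CPM in subway and at 13.4, 11.6 and 14.0 CPM in road filter 28, a difference of -1.0 ± 0.14. Cyclin B1 (ccnb1), partner of the mitotic kinase, stood at 5.81, 7.64 and 7.25 CPM against 14.7, 12.4 and 15.8 CPM, a difference of -1.05 ± 0.17. In both genes the highest subway pool lay well under the lowest road filter 28 pool. The motor protein gene kif4 differed by -0.80 ± 0.11 and had 11.2 to 12.8 CPM in subway and 19.2 to 23.9 CPM in road filter 28.

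Outside the list, the transcription factor foxm1, which drives many mitotic genes, was at 3.05, 3.96 and 4.32 CPM in subway and at 8.23, 7.14 and 9.52 CPM in road filter 28 (-1.13 ± 0.17, adjusted p = 0.000445). The kinetochore gene ska1 stood at 0.906, 1.72 and 1.80 CPM in subway against 3.39, 2.67 and 3.16 CPM. Subway pool 1 was the lowest of the 3 in both genes. ska1 stood at -0.80 without subway pool 1 and did not pass (adjusted p = 0.067 in edgeR). With series 38 as covariate ska1 lost its call, while foxm1 kept its call.

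Of the mitosis genes 3 did not pass: prc1a at -0.51 (95% interval -0.83 to -0.19), cks2 at -0.80 and ccnb2 at -0.61. Against vehicle, 31 of the 32 were lower in subway and 0 passed in road filter 28. The list mean, as log2 CPM minus the vehicle mean, was -1.09, -0.79 and -0.75 in the subway pools and -0.07, -0.28 and 0.11 in the road filter 28 pools. Harbour filter 38 (-1.26 to -1.04) and road filter 26 (-1.23 to -0.89) lay in or below the subway range. The series 38 pool of harbour filter 36 stood at -0.19, between its series 37 pools at -0.25 and -0.12. With series 38 as covariate 14 of the 29 calls were kept and the median stayed at -0.80. The first-round pool of road filter 28 lay at -0.42 against its own vehicle pools.

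**Figure D1:**
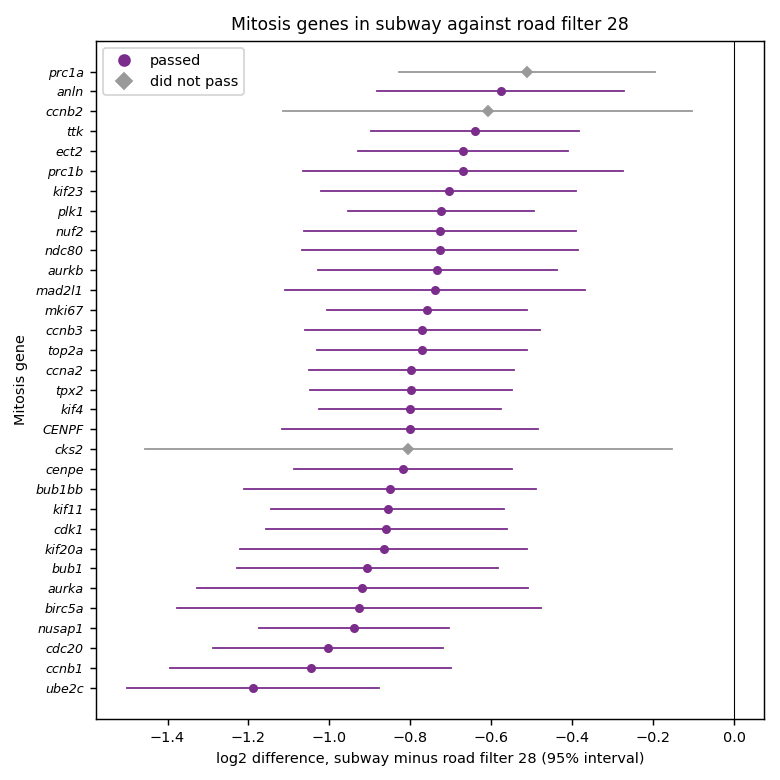
Log2 difference between subway and road filter 28 for each of the 32 mitosis genes tested, with its 95% interval from edgeR; circles passed and diamonds did not. All 32 points lie left of 0, from -1.19 for ube2c to -0.51 for prc1a.

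Genes of DNA replication were lower in part. Of 34 tested, 9 passed as lower and 0 as higher, all 34 estimates were below 0, and the median was -0.42. The polymerase subunit pola1 was at 24.3, 29.2 and 28.1 CPM in subway and at 39.2, 36.2 and 41.9 CPM in road filter 28 (-0.52 ± 0.10, adjusted p = 0.00213). uhrf1, which helps copy DNA methylation, stood at 40.1, 49.2 and 48 CPM against 64.4, 65.2 and 77.5 CPM (-0.59 ± 0.11). Again subway pool 1 was the lowest, and the groups did not overlap. dut, which clears dUTP, and the primase gene prim1 differed by -0.72 and -0.58. Neither passed without subway pool 1 or road filter 28 pool 4, nor prim1 without road filter 28 pool 3, with adjusted p up to 0.105 and 0.124 in edgeR. With series 38 as covariate 0 of the 9 calls were kept and the median was -0.24. There dut in subway stood at 0.01 against vehicle. The list mean was -0.61, -0.28 and -0.29 in subway pools 1, 2 and 3, and -0.25 in the series 38 pool of harbour filter 36.

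A pair of growth-related transcription factors were also lower. mycb stood at 35.6, 40.1 and 39.3 CPM in subway and at 70.9, 63.4 and 73.9 CPM in road filter 28 (-0.85 ± 0.13, adjusted p = 0.00035). Its relative myca differed by -0.38 ± 0.08. Both are in the ribosome biogenesis list, of whose 49 genes tested no other passed and 40 had estimates above 0. Of 61 cytosolic ribosomal protein genes 0 passed in edgeR or DESeq2, and 0 had an unadjusted p under 0.05. Of the 61 estimates 60 were below 0 and 1 above, and 23 genes were lower in subway without overlap, against 14.2% of all genes. Their median of -0.12 became 0.35 with series 38 as covariate, a fit that rests on 1 harbour filter 36 pool. The direction for these genes thus depended on the fit.

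Among the named genes the largest rises were in lectins of the jacalin family. Of 5 jacalin-like lectin genes tested, 4 passed as higher and 1 did not, and the median was 3.45. The other 3 listed genes that were matched were too low to be tested. The genes are close copies, and the sources used here do not say how reads that fit several copies were counted, which leaves the split among them uncertain.

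jac9 (ENSDARG00000074983) stood at 63.2, 75.0 and 75.3 CPM in subway pools 1, 2 and 3 and at 0.505, 5.17 and 3.89 CPM in road filter 28 pools 2, 3 and 4. Subway was at a high and even level, and pool 2 of road filter 28 lay far below the other 2. The difference was 4.47 ± 0.33, a 22.2-fold higher level (adjusted p = 8.52e-08). The vehicle pools stood at 0.247, 0.213 and 0.135 CPM, below both groups. Against vehicle jac9 was higher by 8.50 ± 0.51 in subway and by 4.02 ± 0.71 in road filter 28, and both passed. The latter call was lost without road filter 28 pool 3 or 4 and in the fit that pools the rounds.

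jac8 was at 20.4, 25.7 and 24.1 CPM in subway and at 0.505, 1.91 and 0.763 CPM in road filter 28 (4.41 ± 0.25, adjusted p = 3.23e-09). jac6 stood at 5.27, 6.84 and 5.03 CPM against 0.208, 0.97 and 0.327 CPM (3.45 ± 0.37). jac1 stood at 6.30, 7.08 and 7.42 CPM against 2.11, 2.56 and 2.87 CPM (1.47 ± 0.21). In all 3 genes pool 2 of road filter 28 was the lowest of the 6 libraries. Their calls held in every fit that left out 1 of the 6 libraries, and jac9, jac8 and jac1 also passed with series 38 as covariate. The list mean lay at 4.39 to 4.69 above vehicle in subway, at 0.49, 2.21 and 1.84 in road filter 28, and at 1.93 to 2.19 in harbour filter 36, whose series 38 pool was at 1.99. In harbour filter 38 jac9 had 62.3 to 76.9 CPM and in road filter 26 61.8 to 84.3 CPM, so its subway level lay among theirs.

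**Figure D2:**
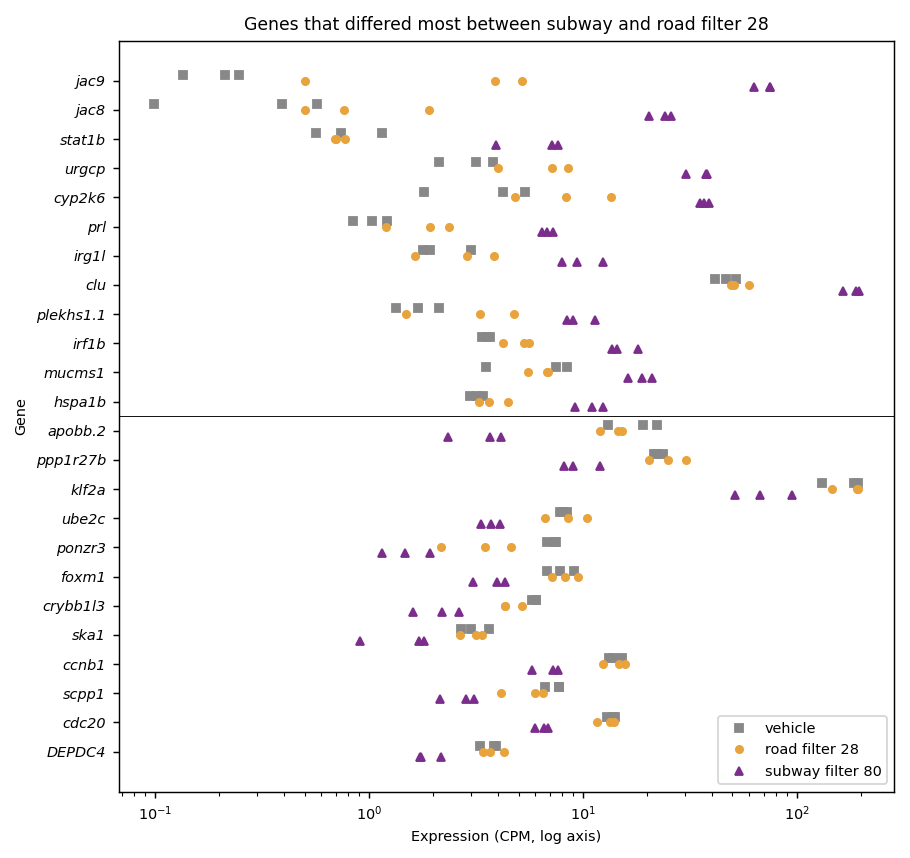
Expression in CPM on a log axis of the 12 genes per direction with the largest difference in subway among those that passed, had a mean log2 CPM of at least 1 over the 6 libraries, did not overlap between groups and had a symbol that is not provisional, for the 3 pools each of vehicle (squares), road filter 28 (circles) and subway (triangles). The subway pools do not overlap road filter 28 in any of these genes, a condition of their choice, and jac9 spans 0.135 CPM in vehicle to 75.3 CPM in subway.

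Clusterin and other secreted or stress-related genes were also among the largest rises of the named genes. clu (ENSDARG00000010434), a secreted chaperone, stood at 195, 164 and 189 CPM in subway and at 48.9, 59.8 and 51.0 CPM in road filter 28. The groups were far apart, and vehicle, at 46.6, 41.6 and 51.8 CPM, lay beside road filter 28. The difference was 1.78 ± 0.11 (adjusted p = 3.23e-09), and it was 1.97 with series 38 as covariate.

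urgcp, named for a role in cell proliferation, was at 30.4, 37.5 and 38 CPM in subway and at 4.01, 8.52 and 7.16 CPM in road filter 28 (2.43 ± 0.27). cyp2k6, a cytochrome P450 of family 2, was at 38.7, 36.7 and 35.3 CPM against 13.6, 4.82 and 8.36 CPM (2.05 ± 0.25). The pituitary hormone prolactin, prl, was at 7.25, 6.80 and 6.42 CPM against 1.93, 2.37 and 1.2 CPM (1.87 ± 0.22). In these 3 genes subway was even and road filter 28 scattered. irg1l, a relative of the itaconate enzyme gene of immune cells, differed by 1.82 ± 0.42, plekhs1.1 by 1.62 ± 0.35 and mucms1 by 1.55 ± 0.21. irg1l did not pass without subway pool 1 or road filter 28 pool 2 (adjusted p up to 0.076 in edgeR). With series 38 as covariate prl, irg1l and plekhs1.1 lost their calls, while urgcp, cyp2k6 and mucms1 kept theirs. In the fit of all 33 libraries with filters apart by series, urgcp, irg1l, plekhs1.1 and mucms1 lost theirs.

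Among the named genes that fell most, apobb.2 (ENSDARG00000075016), a copy of apolipoprotein B, was at 2.35, 4.16 and 3.69 CPM in subway and at 14.5, 15.2 and 12.0 CPM in road filter 28. The highest subway pool lay well below the lowest road filter 28 pool, and the difference was -2.03 ± 0.23 (adjusted p = 2.69e-05). ppp1r27b, a regulatory subunit of protein phosphatase 1, differed by -1.38 ± 0.17, with 8.18 to 12.0 CPM against 20.4 to 30.5 CPM. ponzr3 was at -1.17, the lens gene crybb1l3 at -1.10, the mineral matrix gene scpp1 at -1.04 and DEPDC4 at -1.0. ponzr3 did not pass without road filter 28 pool 2 or subway pool 1 (adjusted p up to 0.0837 in edgeR). With series 38 as covariate crybb1l3, scpp1 and DEPDC4 lost their calls, while apobb.2, ppp1r27b and ponzr3 kept theirs. In the fit of all 33 libraries with filters apart by series, ppp1r27b, ponzr3 and scpp1 lost theirs.

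Some genes of innate immune cells were higher in subway. Of 27 genes of neutrophils and macrophages, 9 passed as higher and 0 as lower, with a median of 0.44. mpeg1.1, the perforin-like gene that marks macrophages, stood at 13.6, 12.9 and 16.6 CPM in subway and at 9.09, 8.95 and 8.28 CPM in road filter 28 (0.71 ± 0.13, adjusted p = 0.00194). Its copy mpeg1.2 stood at 28.3, 27.7 and 28.4 CPM against 12.6, 13.2 and 13.9 CPM (1.09 ± 0.20). The cathepsin gene ctss2.2 differed by 0.82 ± 0.11. Subway lay above road filter 28 in every pool for these 3 genes. The neutrophil enzyme gene mpx ranged from 16.8 to 27.4 CPM over the 6 libraries, stood at 0.44 (95% interval -0.02 to 0.90) and did not pass. Over the list 23 estimates were above 0 and 4 below. Of the latter, cd74a and cd74b stood at -1.16 and -0.96 without overlap, with subway means of 0.31 and 0.63 CPM, and did not pass. Against vehicle both passed as lower in subway, by -2.14 and -1.62. spi1b, ncf1 and csf1rb stood at 0.01, 0.03 and -0.00, with overlap. The list mean was 0.47 to 0.52 above vehicle in subway and 0.07 to 0.17 in road filter 28. Under the series 38 covariate 2 of the 9 calls were kept, while the median was 0.49. In the fit of all 33 libraries with filters apart by series 1 of the 9 was kept.

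Apolipoprotein E, apoeb (ENSDARG00000040295), is in this list and in that of lipoproteins, since macrophages and microglia make it too. It stood at 1140, 1234 and 1122 CPM in subway and at 667, 690 and 656 CPM in road filter 28. The groups were far apart, and vehicle at 597, 657 and 667 CPM lay with road filter 28. The difference was 0.80 ± 0.07 (adjusted p = 2.63e-06).

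In the interferon response list 2 of 20 genes tested passed as higher and 0 as lower, 16 estimates were above 0, and the median was 0.50. stat1b (ENSDARG00000076182), a copy of the signal transducer of interferon receptors, stood at 3.91, 7.68 and 7.17 CPM in subway and at 0.773, 0.701 and 0.690 CPM in road filter 28. Subway pool 1 was the lowest of its group and still above every road filter 28 pool. The difference was 3.11 ± 0.36 (adjusted p = 4.34e-05), and it was 2.84 with series 38 as covariate, where it did not pass. The transcription factor irf1b stood at 13.7, 14.5 and 18.1 CPM against 5.29, 5.61 and 4.25 CPM (1.6 ± 0.15).

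Of 31 inflammation genes 3 passed as higher and 3 as lower. The matrix protease mmp9 was at 19.5, 20.7 and 18.2 CPM in subway and at 8.77, 6.28 and 5.78 CPM in road filter 28 (1.48 ± 0.30, adjusted p = 0.00483). stat3, which carries cytokine signals, differed by 0.54 ± 0.11, and the complement gene c3a.6, named after its value was seen, by 0.52. The cytokine signal suppressors moved the other way. socs1a stood at 8.20, 10.15 and 8.05 CPM against 18.7, 15.4 and 16.5 CPM (-0.94 ± 0.18), and socs3a differed by -0.64 ± 0.15. The chemokine gene cxcl19, also named after its value was seen, differed by -2.10. Of 14 lymphocyte and thymus genes 1 passed, as lower, which is 7.14%, against 5.16% of all genes in either direction. It was rag2, which recombines antigen receptor genes, at 0.700, 1.12 and 1.09 CPM against 1.96, 1.86 and 2.07 CPM (-1.01 ± 0.23). rag2 did not pass without subway pool 1 (adjusted p = 0.0931 in edgeR). socs3a did not pass without road filter 28 pool 4 or subway pool 1 or 2 (adjusted p up to 0.097 in edgeR). The series 38 covariate kept 1 of the 3 higher and 1 of the 3 lower inflammation calls, and mmp9, socs3a and rag2 lost theirs. In the fit of all 33 libraries with filters apart by series 0 of the 3 higher and 0 of the 3 lower were kept, and rag2 was lost.

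A few early response genes were lower in subway. Of 30 immediate early genes 5 passed as lower and 0 as higher, with a median of -0.09. The share that passed as lower was 16.7%, against 2.21% of all genes. klf2a, a transcription factor that responds to blood flow, stood at 51.6, 66.9 and 94.9 CPM in subway and at 146, 192 and 193 CPM in road filter 28. The subway pools spread over a wide range, all below road filter 28, and the difference was -1.32 ± 0.19 (adjusted p = 0.000334). The phosphatase gene dusp1 differed by -0.78 ± 0.14, gadd45ba by -0.83 ± 0.11 and npas4a, induced by neuronal activity, by -0.67 ± 0.13. dusp1 stood at 88.0, 76.4 and 86.4 CPM in subway, at 156, 127 and 147 CPM in road filter 28 and at 148, 232 and 237 CPM in vehicle. Subway was the lowest of the 3 groups, and road filter 28 overlapped vehicle. With series 38 as covariate 3 of the 5 calls of the list were kept, and dusp1 lost its call. In the fit of all 33 libraries with filters apart by series 1 of the 5 was kept. There dusp1, gadd45ba and npas4a lost their calls.

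**Figure D3:**
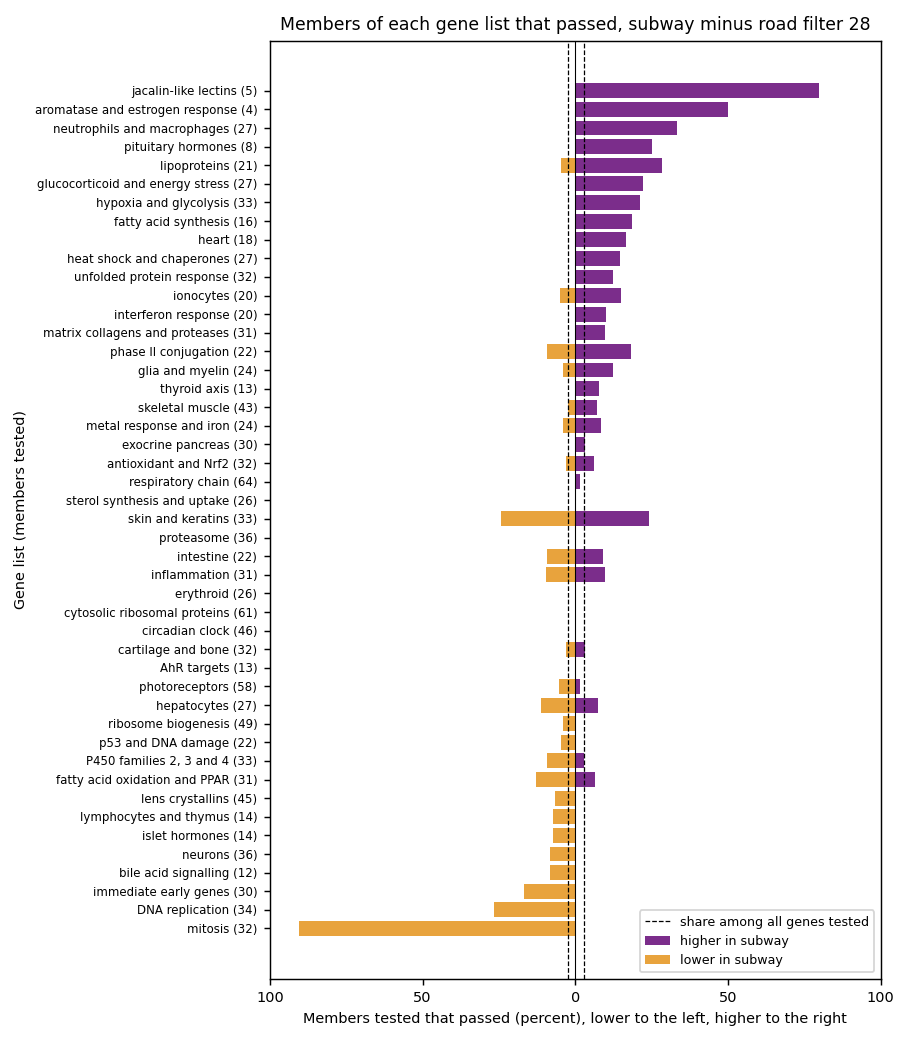
Share of the tested members of each of the 46 gene lists that passed in edgeR, higher in subway to the right and lower to the left, with the number tested in brackets; dashed lines mark the shares among all genes tested, 2.95% and 2.21%. Mitosis (29 of 32 lower) and jacalin-like lectins (4 of 5 higher) have the longest bars.

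Some protein folding genes were higher. Of 27 heat shock and chaperone genes 4 passed as higher and 0 as lower, with a median of 0.20. hspa1b, a heat shock protein of the HSP70 family, stood at 12.4, 9.20 and 11 CPM in subway and at 4.49, 3.64 and 3.27 CPM in road filter 28 (1.51 ± 0.24, adjusted p = 0.00073). hsp90aa1.1 stood at 163, 176 and 154 CPM against 94.7, 98.3 and 92.0 CPM (0.79 ± 0.10). In both genes the subway pools lay above all road filter 28 pools. hspa1b did not pass with series 38 as covariate, and hsp90aa1.1 did. hspa4a and hspa9, which also passed, were lost in all 6 fits that left out 1 library. Other HSP70 genes, hsp70.1, hsp70.2, hsp70.3 and hsp70l, overlapped between the extracts and did not pass, at 0.54, 0.36, 0.70 and 0.51. hsp70l ranged from 20.3 to 168 CPM in road filter 28. Against vehicle hsp70.3 passed as higher in both, by 3.68 in subway and 2.97 in road filter 28. Of 32 unfolded protein response genes 4 passed as higher, 29 estimates were above 0, and the median was 0.19. These were the chaperone genes hyou1 (0.55 ± 0.12) and hspa5 (0.43 ± 0.12), the secreted factor manf (0.56 ± 0.14) and the transcription factor ddit3 (0.39 ± 0.11). Of these, manf, ddit3 and hspa5 were lost in 4, 4 and 6 of the 6 fits that left out 1 library. Under the series 38 covariate 0 of these 4 passed in the same direction, with the median at 0.18. Of 36 proteasome genes 0 passed in edgeR (8 at an unadjusted p under 0.05) and 1 in DESeq2, and psmd12 had the smallest p, at 0.22 (95% interval 0.07 to 0.37).

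Genes of energy and lipid handling were higher in part. Of 33 hypoxia and glycolysis genes 7 passed as higher and 0 as lower, with a median of 0.07. hk2, hexokinase of the first step of glycolysis, stood at 18.8, 18.7 and 19.2 CPM in subway and at 9.99, 9.27 and 11.4 CPM in road filter 28 (0.89 ± 0.13, adjusted p = 0.00035). hif1al, a hypoxia-inducible factor gene, stood at 353, 324 and 322 CPM against 211, 205 and 189 CPM (0.72 ± 0.10), and epas1b, another, differed by 0.35 ± 0.08. ndrg1b differed by 0.78 ± 0.12. Subway lay above road filter 28 in each. epas1b was lost in 4 of the 6 fits that left out 1 library (adjusted p up to 0.0678 in edgeR). Under the series 38 covariate 1 of the 7 calls was kept.

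Of 21 lipoprotein genes 6 passed as higher and 1, apobb.2, as lower, with a median of 0.25. apoa4b.3, an apolipoprotein A-IV copy, stood at 137, 122 and 118 CPM in subway and at 67.8, 54 and 75.9 CPM in road filter 28 (0.94 ± 0.14). The hepatic lipase gene lipca differed by 0.76 ± 0.20. Of 16 fatty acid synthesis genes 3 passed as higher: ACLY, which makes cytosolic acetyl-CoA (0.88 ± 0.11), elovl5 (0.61 ± 0.13) and lpin1a (0.45 ± 0.12). ACLY stood at 23.2, 21.2 and 23.2 CPM against 14.0, 11.4 and 11.3 CPM. The median of the fatty acid synthesis list was 0.01, with 8 estimates above 0 and 8 below. The series 38 covariate kept 1 of these 3 calls, ACLY. It kept 2 of the 6 higher lipoprotein calls and apobb.2, while apoa4b.3 and lipca lost theirs. Of 31 genes in the joint list of fatty acid oxidation and PPAR genes 2 passed as higher and 4 as lower. The ileal bile acid binding protein gene fabp6 was among the latter at -0.60 ± 0.13, with 78.6, 96.1 and 88.9 CPM against 125, 122 and 152 CPM. It was the only one of 12 bile acid genes to pass, 8.33% against 5.16% of all genes in either direction. Leaving out 1 library in turn, elovl5 was lost without subway pool 2, fabp6 without subway pool 1 or road filter 28 pool 4, and lipca and lpin1a in 5 of 6 fits each. Of 26 sterol synthesis genes 0 passed in edgeR (3 at an unadjusted p under 0.05) or DESeq2, and ggps1 had the smallest p, at 0.21 (95% interval 0.04 to 0.37).

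Some stress hormone genes were higher as well. Among 27 glucocorticoid and energy stress genes 6 passed as higher and 0 as lower, with a median of 0.17. In this list 18 estimates were above 0 and 9 below. hsd20b2, an enzyme gene of cortisol breakdown, stood at 43.9, 33.8 and 38.2 CPM in subway and at 19.9, 21.9 and 20.6 CPM in road filter 28 (0.89 ± 0.12, adjusted p = 0.00018). pomca, precursor of the pituitary hormone that drives cortisol release, stood at 9.19, 10.4 and 9.69 CPM against 5.26, 6.20 and 4.69 CPM (0.85 ± 0.16). fkbp5, a receptor cochaperone, differed by 0.63 ± 0.16. The groups did not overlap in these genes. They did in tsc22d3, per1b and tat of the same list, which stood at 0.02, -0.03 and -0.16 and did not pass. Besides pomca, prl passed among 8 pituitary hormone genes tested. The thyroid hormone precursor gene tg differed by 0.79 ± 0.18, the only one of 13 thyroid genes to pass. That is 7.69% of the thyroid list, against 5.16% of all genes in either direction. esr2b, an estrogen receptor, and vtg7, a yolk protein gene, differed by 0.81 ± 0.18 and 1.77 ± 0.48, and vtg7 was near 0.4 CPM in road filter 28. esr2b did not pass without subway pool 1, tg without subway pool 1 or road filter 28 pool 2 or 4, and fkbp5 and vtg7 in 5 of the 6 fits that left out 1 library. esr2b, vtg7 and fkbp5 did not pass with series 38 as covariate either. hsd20b2 and prl also lost their calls in that fit, while pomca and tg kept theirs.

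Skin genes moved in both directions. Of 33 skin and keratin genes 8 passed as higher and 8 as lower, with a median of 0.05. krt5 (ENSDARG00000058371), a keratin of the basal skin layer, stood at 1845, 1823 and 1934 CPM in subway and at 2948, 3199 and 3222 CPM in road filter 28. All 3 subway pools were well below road filter 28, and vehicle, at 3539 to 3599 CPM, was above both. The difference was -0.74 ± 0.09 (adjusted p = 3.66e-05). krtt1c19e, another keratin of that layer, differed by -1.0 ± 0.15, with 417 to 446 CPM against 760 to 924 CPM. The tight junction gene cldne, at 134, 132 and 126 CPM against 85.6, 95.4 and 91.9 CPM, was higher by 0.52 ± 0.08, and krt94 by 0.52 ± 0.08. The series 38 covariate kept 4 of the 8 higher and 1 of the 8 lower calls, the last being krt5. Keratins are a large family of like sequence, so the counts of single members are uncertain.

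Of 20 ionocyte genes 3 passed as higher and 1 as lower. The ammonia channel gene rhcga stood at 94.1, 99.6 and 88.3 CPM against 66.5, 57.3 and 58.9 CPM (0.63 ± 0.10). The chloride channel cftr (0.65 ± 0.12) and the cotransporter slc12a10.2 (0.46 ± 0.09) were also higher, while the anion exchanger slc4a1b was lower (-0.60 ± 0.12). The 3 higher genes did not pass with series 38 as covariate, and neither did slc4a1b.

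Organ lists differed in the share that passed in either direction, which was 5.16% over all genes. It was 6.90% of photoreceptor, 6.25% of cartilage and bone and 6.67% of lens genes. It was 18.5% of hepatocyte, 18.2% of intestine, 16.7% of heart and 16.7% of glia genes. The lens calls were all lower, for which the share over all genes was 2.21%. In 18 of the 45 lens genes subway was lower without overlap, against 14.2% of all genes. Of 45 lens genes 3 passed as lower, the water channel mipa at -0.38 ± 0.06, BFSP1 at -0.51 ± 0.09 and gja3 at -0.69 ± 0.19 (lost whichever of the 6 libraries was left out), and 42 of the 45 estimates were below 0. Of 36 neuron genes 3 passed as lower: the tubulin tubb5 and the growth cone genes stmn2a and stmn2b. tubb5 stood at 186, 203 and 217 CPM in subway and at 297, 262 and 344 CPM in road filter 28 (-0.57 ± 0.10). Subway was below road filter 28 in every pool, and vehicle, at 337 to 369 CPM, was higher still apart from overlap with the highest road filter 28 pool. The glutamine synthetase genes glulb and glula of glia were higher by 0.48 ± 0.08 and 0.43 ± 0.09. Of 58 photoreceptor genes 3 passed as lower and 1 as higher. The cone kinase grk7a was at 196, 214 and 190 CPM against 269, 283 and 253 CPM (-0.43 ± 0.08). The series 38 covariate kept 0 of the 3 lower photoreceptor calls and lost the 1 higher call. It kept 2 of the 3 lens and 3 of the 3 neuron calls, and that of glulb but not of glula.

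Among 18 heart genes 3 passed as higher: myh7l (0.44 ± 0.07), the calcium pump atp2a2a (0.45 ± 0.08) and the atrial myosin myh6 (0.79 ± 0.18). Of 27 hepatocyte genes 2 were higher and 3 lower. The plasma protein ahsg1 was at 11.2, 15.3 and 17.4 CPM in subway, at 26.2, 30.2 and 30.8 CPM in road filter 28 and at 38.9, 39.9 and 43.3 CPM in vehicle. Subway was lowest and vehicle highest with no overlap, and subway minus road filter 28 was -0.99 ± 0.15. Of 22 intestine genes 2 were higher, the glucose transporter slc5a1 (0.51 ± 0.13) and apoa4a (0.70 ± 0.20), and 2 lower, apobb.2 and fabp6. The liver fatty acid binding protein fabp10a differed by -0.40 ± 0.09 and the fibrinogen chain fga by 0.44 ± 0.12. In bone and cartilage spp1, of mineralised matrix, was lower (-0.88 ± 0.16) and the proteoglycan gene acana higher (0.56 ± 0.10), 2 of 32. The matrix gene fn1b was higher by 0.55 ± 0.10, 1 of 3 among 31 matrix genes. With series 38 as covariate 1 of the 3 heart calls was kept, and 0 of the 2 higher and 0 of the 3 lower hepatocyte calls. In the intestine list 1 of the 2 higher and 2 of the 2 lower calls were kept there. spp1 and fn1b lost their calls in that fit, while acana kept its call. Leaving out 1 library in turn, fabp10a was lost without road filter 28 pool 2, myh6 without subway pool 1 or road filter 28 pool 4, fga and apoa4a in 4 of 6 fits and slc5a1 in 5.

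Detoxification genes outside the AhR list passed in both directions, 27.3% of conjugation, 12.5% of metal and iron and 9.38% of antioxidant genes tested. Over all genes 5.16% passed in either direction. The ferritin gene fthl31, of iron storage, stood at 67.1, 72.2 and 59.12 CPM in subway, at 42.3, 36.1 and 43.3 CPM in road filter 28 and at 13.3, 15.9 and 16.3 CPM in vehicle. The 3 groups did not overlap. It was higher in subway than in road filter 28 by 0.71 ± 0.11 (adjusted p = 0.000638), and against vehicle by 2.12 in subway and 1.41 in road filter 28. Of the other ferritin genes fthl27 passed, at 0.35, but not with series 38 as covariate. fthl28, fthl29 and fthl30, at 0.32, 0.06 and 0.17, did not pass, nor did fth1a and fth1b, at -0.13 and -0.23. Against vehicle fthl28, fthl29 and fthl30 passed as higher in both extracts. How reads that fit several of these genes were counted is not given. sqstm1, the autophagy receptor, stood at 159, 150 and 159 CPM in subway, at 107, 89.7 and 90.8 CPM in road filter 28 and at 61.2, 52.0 and 64.0 CPM in vehicle. These groups did not overlap either, and the difference was 0.71 ± 0.09. In all, 2 of 24 metal and iron genes and 2 of 32 antioxidant genes passed as higher, with 1 lower in each. Of 22 conjugation genes 4 passed as higher, such as the sulfotransferase sult2st1 (0.67 ± 0.11). The 2 that passed as lower were the glutathione transferases gstr (-0.48 ± 0.09) and gstt1b (-0.54 ± 0.10). The series 38 covariate kept 1 of these 4 higher calls, sult2st1, and 0 of the 2 lower. fthl31 kept its call in that fit and sqstm1 did not.

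No AhR target passed between the extracts in the reported fit. Of 13 tested, 0 passed in edgeR or DESeq2, 6 had an unadjusted p under 0.05 in edgeR, 4 had groups that did not overlap, all lower in subway (14.2% of all genes tested did so), and the median was -0.15. In 3 alternatives 1 target passed as lower in subway: cyp1a in the fit of the 6 libraries alone and in that without harbour filter 36 replicate 4, and foxq1a without road filter 28 pool 3.

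cyp1a (ENSDARG00000098315), the classic AhR target, stood at 47.0, 56.9 and 46.9 CPM in subway, at 64.7, 69.6 and 61.7 CPM in road filter 28 and at 30.5, 30.4 and 40.1 CPM in vehicle. The 3 groups did not overlap, with subway in the middle. Subway minus road filter 28 was -0.38 ± 0.13 (adjusted p = 0.107; 95% interval -0.65 to -0.11), with alternatives from -0.48 without subway pool 2 to 0.20 with series 38 as covariate, the only one above 0. It passed at -0.38 in the 6 libraries alone (adjusted p = 0.00991 in edgeR) and without harbour filter 36 replicate 4, an alternative chosen after seeing the data (adjusted p = 0.028). The series 38 pool of harbour filter 36 also lay below its series 37 pools.

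cyp1b1 stood at 6.63, 6.0 and 5.62 CPM in subway and at 7.07, 8.22 and 8.57 CPM in road filter 28 (-0.39 ± 0.13, adjusted p = 0.0944). The AhR repressor ahrra was at 0.371, 0.520 and 0.419 CPM against 0.713, 0.970 and 1.16 CPM (-1.10 ± 0.37, adjusted p = 0.0918). ugt1b1, a glucuronosyltransferase, was at 11, 12.8 and 10.32 CPM against 14.7, 14.2 and 13.6 CPM (-0.32, 95% interval -0.57 to -0.07). These 3 are the others whose groups did not overlap, and none passed. cyp1c1 (-0.18, 95% interval -0.39 to 0.02), cyp1c2 (0.28, 0.02 to 0.53), cyp1d1 (-0.10, -0.33 to 0.13), tiparp (-0.15, -0.32 to 0.02) and foxq1a (-0.42, -0.73 to -0.11) overlapped between the groups. So did ahrrb (0.43, -0.40 to 1.27), nfe2l2b (0.02, -0.20 to 0.23), sult6b1 (-0.02, -0.31 to 0.27) and the receptor ahr2 (-0.01, -0.14 to 0.12).

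Against the shared vehicle pools, 6 of the 13 were higher and 1, foxq1a, lower in subway, and 4 were higher in road filter 28. cyp1a was higher by 0.58 ± 0.13 in subway (adjusted p = 0.00676) and by 0.95 ± 0.13 in road filter 28 (adjusted p = 0.000944). cyp1b1 was higher by 0.67 ± 0.14 and 1.05 ± 0.13, cyp1c1 by 0.55 ± 0.10 and 0.73 ± 0.10, and ahrra by 2.04 ± 0.52 and 3.14 ± 0.46. cyp1c2 was higher by 0.77 ± 0.13 in subway, and stood at 0.50 ± 0.13 in road filter 28, where it did not pass. With the treatment label's replicate number as a block, these comparisons rest on vehicle pool 4 alone, so that fit cannot test the calls. There cyp1a stood at 0.59 in subway and at 0.98 in road filter 28. With series 38 as covariate cyp1b1, cyp1c2, ahrra, ahr2 and foxq1a lost their subway call, at 0.75, 0.55, 2.11, 0.28 and -0.29. In the fit that pools the rounds cyp1a, at 1.09, cyp1c2, ahr2 and foxq1a, at 0.0336 and so opposite in sign, did not pass in subway. ahrra did not pass in subway without pool 2, ahr2 without pool 3, and foxq1a without either.

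**Figure D4:**
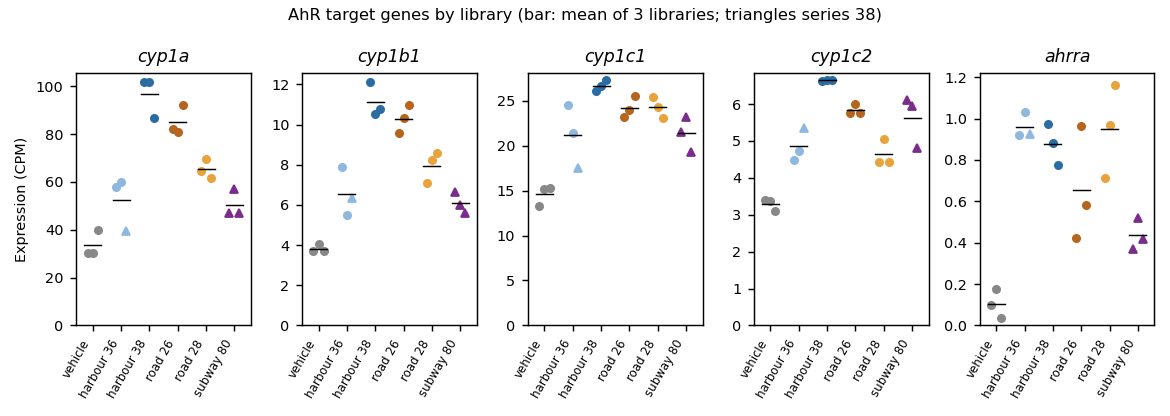
CPM of 5 AhR target genes in each of the 18 second-round libraries by filter, with the mean of 3 libraries as a bar; triangles are library series 38. For cyp1a subway, at 46.9 to 56.9 CPM, lies between vehicle and road filter 28.

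**Figure D5:**
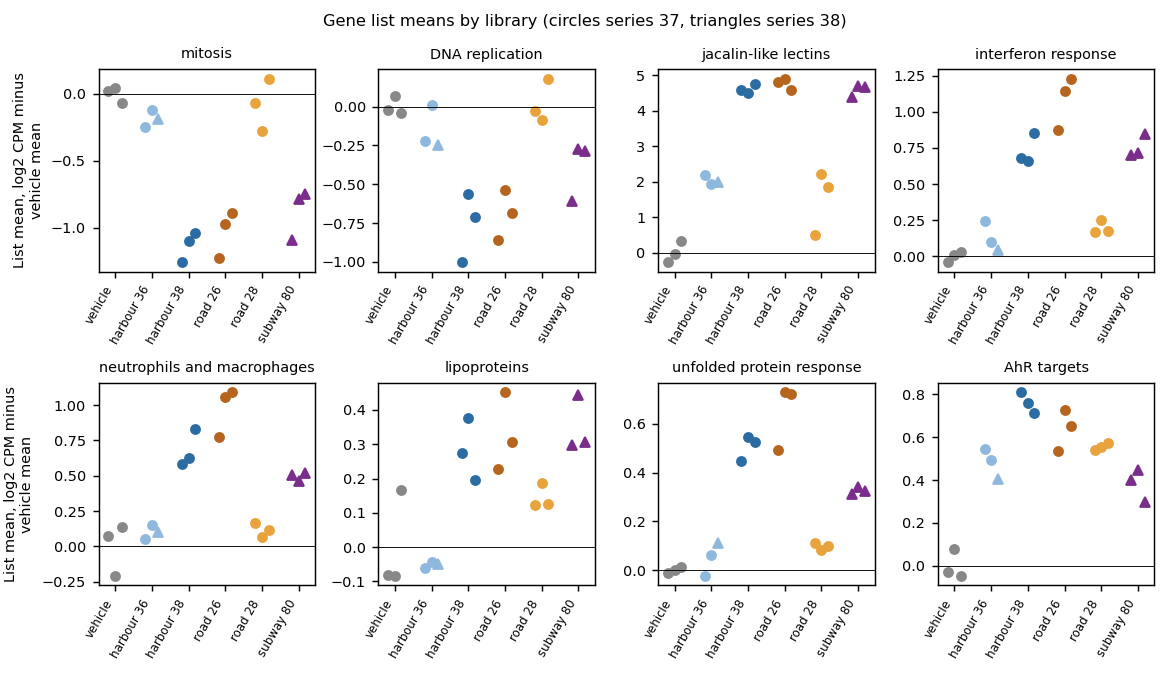
Mean over 8 gene lists of log2 CPM minus the vehicle mean in each of the 18 second-round libraries by filter; circles are series 37 and triangles series 38. Subway sits near harbour filter 38 and road filter 26 for jacalin-like lectins, at 4.39 to 4.69, while road filter 28 lies at 0.49 to 2.21 beside harbour filter 36.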

How the data were processed

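The deposited table holds counts of reads per protein-coding gene, 25432 genes, made by the authors; the submitters' processing notes name CASAVA, BWA and GRCz11, and how multimapping reads were counted is not given in the sources used here. The deposited quality table gives, per the file headers, percent of reads mapped or duplicated, and read pairs and insert size as signal values. Gene names were matched by identifier for all but 1806 genes. Counts were fitted with edgeR 4.0.16 (R 4.3.3, limma 3.58.1): filterByExpr, TMM scaling, 1 coefficient per filter or vehicle over 18 second-round libraries (residual degrees of freedom 12), glmQLFTest and Benjamini-Hochberg adjustment over all 21856 genes tested, threshold 0.05. DESeq2 1.42.0 was an alternative. The procedure was tested on simulated counts drawn without a library series effect, so that test does not bear on extract against series. Labels call the pools biological replicates; p-values measure spread between pools of 1 extract.

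The members and the 46 gene lists (1356 of 1454 entries matched) were chosen with earlier results of these data known. Named genes were all AhR targets, in each direction the 12 largest differences at most (passing, mean log2 CPM of at least 1, no overlap between groups, a non-provisional symbol), up to 4 passing members per list by p, and the member with the smallest p where none passed. Others are said to be named after their values were seen. Replicates of a group differed by more than sampling noise (chi-square per degree of freedom 4.56 to 11.3). Alternatives were other scalings, DESeq2, filters, libraries, thinning, covariates, blocks and leaving out each pool.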

Additional observations from a re-analysis of the deposited data

How the results depend on the processing

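Scaling by RLE or upper quartile, DESeq2, either filter and thinning to equal depth kept the counts within 1.5 times of 1128, 644 and 484. The 6 libraries alone gave 2012 genes, 1115 higher and 897 lower. All 33 libraries with 1 coefficient per filter and the first round as covariate gave 0, 0 and 0 in edgeR (1329 at unadjusted p under 0.05). The same model gave 1, 1 and 0 in DESeq2 (1367). All 33 with filters apart by series gave 509, 288 and 221. That DESeq2 fit of all 33 and the fit with filters apart were chosen after the data were seen. So was leaving out harbour filter 36 replicate 4, which gave 1454 (806 and 648). With series 38 as covariate 408 were higher. Leaving out 1 library gave 535 to 806 genes, 325 to 468 higher and 210 to 338 lower; without subway pool 3 the lower count was 314. The cause was not tested.

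The replicate numbers of the labels did not pair the pools: deviations of same-numbered pools correlated at 0.000622 and -0.0202, and of pools with the same title number at 0.0117 and -0.00822. With the treatment label's replicate number as a block 603 genes passed, 382 higher and 221 lower, and with the title number 1157. Replicate number 1 belongs to subway pool 1 alone, so that pool carries no weight in the former fit. Of 128 named calls 89 were kept in both block fits.

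Against vehicle in subway, foxq1a stood at 0.0336 in the fit of all 33 libraries and dut at 0.0119 with series 38 as covariate, both opposite in sign to their reported values. Of 128 named calls, 29 were kept in every alternative other than the fits pooling all 33 libraries by filter, among them jac9, jac8, clu, cdc20, nusap1, apoeb and krt5. The 1 filter per site and the depth gap limit every comparison.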

Other observations

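Several lists not described above gave few or no calls. The share that passed in either direction was 5.16% over all genes. It was 1.56% of respiratory chain, 3.33% of exocrine pancreas and 4.55% of p53 and DNA damage genes, near or below that share. It was 7.14% of islet, 9.30% of skeletal muscle and 12.1% of genes of P450 families 2, 3 and 4. Of 46 circadian clock genes 0 passed in edgeR (4 at an unadjusted p under 0.05) and 2 in DESeq2, 1 in each direction, and tefb, with the smallest p, stood at 0.33 (95% interval 0.13 to 0.54). Of 26 erythroid genes 0 passed in edgeR (5 at an unadjusted p under 0.05) or DESeq2, with add2 at -0.20 (95% interval -0.36 to -0.04) and a list median of -0.15. One of 64 respiratory chain genes, sdha of complex II, was higher (0.22 ± 0.06), and 1 of 30 exocrine pancreas genes, the protease gene prss60.3 (0.99 ± 0.24). In the skeletal muscle list, of 43 genes tested, the slow myosins smyhc1 and smyhc2 were higher by 0.28 and 0.32. The kinase gene mylk3, placed in that list, was higher by 0.46, and the actin acta1a was lower (-0.37 ± 0.09). The vitamin D hydroxylase gene CYP2R1 (-0.87), cyp2n13 (-0.37) and cyp3c4 (-0.49) were lower among 33 genes of P450 families 2, 3 and 4. gadd45ab was lower (-0.54 ± 0.13), the only one of 22 p53 and DNA damage genes to pass. In the islet list pax6b was lower (-0.30 ± 0.06), 1 of 14, while 10 estimates were above 0 and 4 below. Each gene named here as higher or lower was lost in at least 1 of the 6 fits that left out 1 library.

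The first-round pool of road filter 28, a single library set against the first-round vehicle pools, had a jacalin-like lectin mean of 2.98, an interferon response mean of -0.75 and an AhR target mean of 1.07 on the log2 scale. The second-round pools stood at 1.5, 0.19 and 0.55 against theirs, and subway at 4.57, 0.76 and 0.39. The rounds differ in more than the pool, and no test was made.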
